A study of Mus musculus with 6 samples.

Results

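The genes described here are those of presynaptic vesicle release, in mouse gliomas made with or without a HoxA5 virus. They were taken by gene symbol alone, as the synaptotagmin, syntaxin, Vamp, Snap, synuclein, complexin, synapsin, synaptogyrin, synaptophysin, Sv2, Rab3, Rims, Unc13 and Doc2 families with their binding proteins, Nsf, Bsn and Pclo. The search found 106 of the 19057 genes that carry a symbol on the array, read by 208 probes. From general knowledge of where each gene is used, 47 were put in a neuronal class, 28 in a ubiquitous class that serves membrane traffic in most cells, and 19 in a class of other secretory genes. The remaining 12 were Rab30 to Rab39, which share only the first letters of their symbols with Rab3.

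The tumours were compared on 6 Illumina bead arrays, 2 of HoxA5 tumours and 4 of mCherry tumours. Both kinds arose in adult Ntva mice, which carry the tva virus receptor behind the nestin promoter of neural progenitors. The mice were Ink4a/Arf+/- or Ink4a/Arf-/- on a mixed FVB/N, C57BL6, BALB/C and 129 background, and the labels do not say which genotype each tumour had. In both groups PDGFb virus was delivered by chicken DF1 cells, mixed with DF1 cells that made either HoxA5 or mCherry virus and placed in the right frontal cortex, and total RNA was taken from whole tumour tissue when the mice fell ill. The HoxA5 group asks whether raised HOXA5 changes such tumours, and mCherry is its control. Nothing in the labels says that the tumours came from separate mice. By the signals of Xist and Eif2s3y, HoxA5 1, mCherry 1 and mCherry 2 were male, and HoxA5 2, mCherry 3 and mCherry 4 female. Each group therefore held more than 1 mouse, but whether mCherry tumours of the same sex came from separate mice is unknown. A p-value here reflects how far these samples spread, which may be technical in part.

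A nerve terminal releases transmitter when a synaptic vesicle fuses with the plasma membrane. Fusion is driven by SNARE proteins that zip together across the gap, Vamp on the vesicle with syntaxin and Snap25 on the target membrane. Calcium that enters the terminal binds synaptotagmin and sets off fusion, complexin and Unc13 proteins hold or prime the SNAREs, Rims, Bassoon and Piccolo build the active zone, and Nsf takes used SNARE complexes apart. Every cell runs the same machinery for its own traffic with close relatives such as Vamp3, Snap23 and Stx4a, while the neuronal forms mark neurons and neuroendocrine cells.

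Median raw intensities ran from 153.1 to 166.8 on the HoxA5 arrays and from 136.1 to 156.9 on the mCherry arrays, and 19950 to 21904 probes were above background. The number of arrays limits the precision. The single Hoxa5 probe was above background on 0 of 6 arrays (lowest detection p-value 0.0652), and its place relative to the delivered sequence is unknown, so the labels have no check from it. Of 7 glioma progenitor markers, Olig1, Olig2, Pdgfra, Sox10, Sox11 and Cspg4 were above background on every array, and Dll3 on 2 HoxA5 arrays and 1 mCherry array. The mCherry 4 array correlated with the 2 HoxA5 arrays at 0.963 and 0.962 across genes, above its 0.921 to 0.957 with mCherry 1, 2 and 3. Calls that leaving it out adds are therefore given as well. Since the array was singled out for its likeness to the HoxA5 arrays, leaving it out tends to widen the group differences. Those added calls are a description and no separate support. In whole tumour RNA, fewer cells of a type and less RNA per cell cannot be told apart.

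Genes of neuronal release were lower in HoxA5 tumours, while most of their ubiquitous relatives differed little between the groups. Of the 106 genes, 88 were tested, and 20 of these fell and 0 rose in limma over all genes. Of all 12242 genes tested, 4.64% fell, 1.21% rose and 5.85% passed in either direction. The 20 genes were 18 of 40 neuronal, 1 of 27 ubiquitous and 1 of 11 other secretory genes, with 0 of 10 in the Rab30 to Rab39 class. Without adjustment, 37 of the 88 genes were lower and 6 higher at p under 0.05, against 13.1% and 11.5% of all genes. The median difference was -1.58 for neuronal genes, -0.09 for ubiquitous genes and 0.07 for all genes. With each array scaled to its median instead, the ubiquitous median was 0.097 and that of all genes 0.20, so the sign of the ubiquitous median depends on the scaling.

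**Figure D1:**
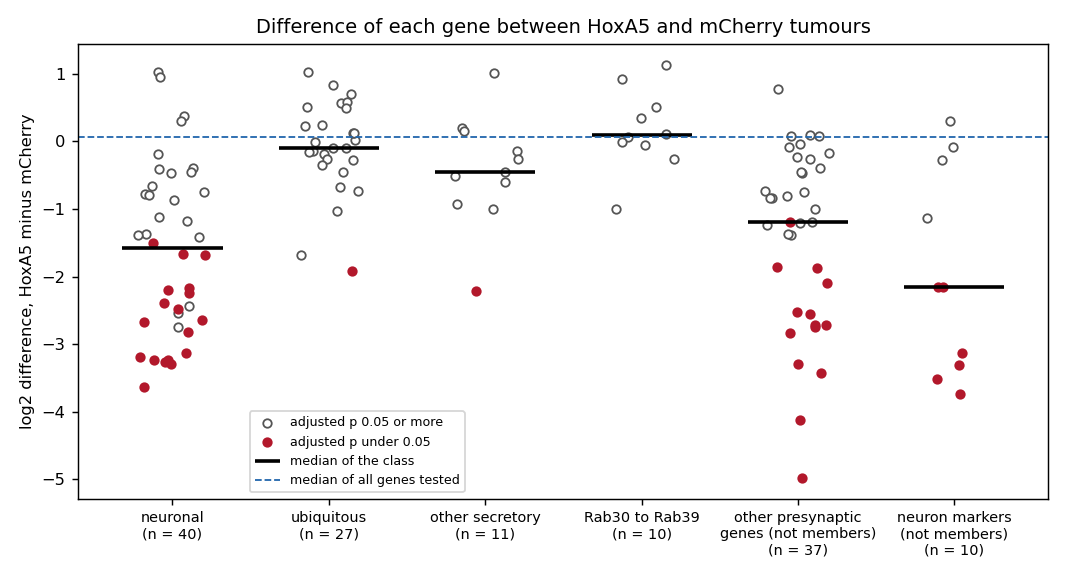
Each point is 1 gene, with its log2 difference (HoxA5 minus mCherry) on the vertical axis and its class on the horizontal axis; filled points passed limma at an adjusted p under 0.05, bars are class medians and the dashed line is the median of all genes tested. Neuronal genes reach from -3.64 to 1.03 with 18 filled points, while the ubiquitous class has 1.

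A gene was tested if a probe was above background on at least 2 of the 6 arrays, and 8 of the 88 genes were above background only on mCherry arrays and entered the test through that group alone. The contrast between the classes was also present among genes above background on all 6 arrays. There, 17 of 30 neuronal genes fell (median -1.92) and 1 of 25 ubiquitous genes (median -0.098). The 2 HoxA5 arrays lay below all mCherry arrays for 30 of the 40 neuronal and 4 of the 27 ubiquitous genes, against 17.2% of all genes, and above them for 2 and 5, against 18.3% of all genes.

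The number of calls depended on single arrays. The arrays of the 2 groups did not overlap for any of the 20 genes, so their direction could not turn when 1 array was left out, and all 20 had an unadjusted p under 0.05 in each such fit. After adjustment 13 passed without mCherry 1, 14 without mCherry 2, 19 without mCherry 3 and 20 without mCherry 4. In these fits 163, 229, 426 and 1370 of all genes tested were called lower. Fewer of the 20 passed in the fits that kept 1 HoxA5 array, where few of all genes passed either. Over all genes, the fit without mCherry 4 called 1370 lower and 1038 higher of 12112 tested, against 568 and 148 of 12242 with all arrays. Of the 86 release genes tested there, 33 were lower and 4 higher, and those lower included 8 more neuronal genes. These were Unc13c at -2.99 (adjusted p = 0.000930), Syngr3 at -1.73 (0.00265), Rims2 at -1.64 (0.0125), Syn1 at -1.60 (0.00718) and Unc13b at -1.28 (0.0370), with Doc2b (0.00158), Sncg (0.00201) and Syt3 (0.0161), which were above background on no HoxA5 array. Without HoxA5 2 the adjusted p-values of the 20 genes ran from 0.0970 to 0.300 and their differences from -3.09 to -1.31. The 7 genes that passed without HoxA5 1 were Cplx1, Rims3, Sncb, Stx1a, Sv2b, Syt1 and Syt13, and these passed in every fit but the one without HoxA5 2. Of the 6 fits, Cplx2, Sv2a, Syn2, Syt5 and Vamp2 passed in 2 and Syt4 in 1. The fits without a HoxA5 array keep 1 HoxA5 array, which is taken to vary as the mCherry arrays do.

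Among the SNAREs, the neuronal genes tested, Stx1a, Vamp1 and Vamp2, all fell. The log2 intensity of Vamp2, the main vesicle SNARE of brain synapses, was 11.18 and 11.01 in HoxA5 tumours, against 12.72, 12.53, 13.17 and 11.96 in mCherry tumours. It fell by 1.50 log2 units (SE 0.310, limma adjusted p = 0.0265), which is 2.83-fold. Stx1a, its partner in the plasma membrane, was at 9.97 and 9.06 in HoxA5 tumours, against 11.62, 11.89, 12.20 and 11.33 in mCherry tumours. No HoxA5 array reached the lowest mCherry array for either gene, and Stx1a fell by 2.25 (adjusted p = 0.00921). Vamp1, the vesicle SNARE of spinal and motor terminals, was at 6.44 and 5.63 in HoxA5 tumours, against 8.64, 9.38, 9.44 and 7.94 in mCherry tumours and fell by 2.82 (adjusted p = 0.0137). A second Vamp1 probe, above background on 5 arrays, differed by -3.16, and 2 dim probes differed by 0.22 and -0.02. Both Snap25 probes were above background on 0 of 6 arrays, so the third SNARE of the synapse was not measured.

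Calcium sensors held several of the largest differences, with 5 of 11 neuronal members falling and a median of -2.40. Syt1, the sensor for fast synchronous release, was at 11.22 and 10.23 in HoxA5 tumours, against 14.28, 14.07, 14.56 and 13.14 in mCherry tumours. It fell by 3.29 log2 units (SE 0.400, limma adjusted p = 0.00571), or 9.78-fold, and its second probe differed by -3.64. A dimmer probe was above background on the 4 mCherry arrays and not on the HoxA5 arrays. Syt13, an atypical synaptotagmin without calcium binding, was at 5.69 and 4.96 in HoxA5 tumours, against 8.71, 8.72, 9.06 and 7.61 in mCherry tumours and was above background on 1 of the 2 HoxA5 arrays. Every HoxA5 value lay well below every mCherry value for both genes, and Syt13 fell by 3.20 (adjusted p = 0.00921). Syt7, the slow sensor of high calcium affinity, was at 7.42 and 7.00 in HoxA5 tumours, against 10.23, 10.12, 10.09 and 8.97 in mCherry tumours. It fell by 2.64 (adjusted p = 0.00948), and mCherry 4 stood apart from the other mCherry arrays. Syt5, a vesicle synaptotagmin, was at 6.63 and 6.96 in HoxA5 tumours, against 9.97, 9.57, 10.27 and 8.06 in mCherry tumours, and Syt4, a synaptotagmin of dense core vesicles, was at 9.10 and 9.02 in HoxA5 tumours, against 11.05, 12.76, 11.74 and 10.28 in mCherry tumours. The mCherry 4 array had the lowest mCherry value of both, and they fell, with differences of -2.67 and -2.40 (adjusted p = 0.0267 and 0.0387). Doc2b, a soluble calcium sensor of spontaneous release, was above background on 3 mCherry arrays and no HoxA5 array and at least 4.56-fold lower, but did not pass with all arrays (adjusted p = 0.119). On the probe used, its brightest, the mCherry 4 value of 4.98 was not above background, against 8.33, 7.28 and 8.78 on the other mCherry arrays. The gene passed without mCherry 4, as given above. Such a bound sets the mCherry mean against the higher of each HoxA5 array's own value and its lowest signal above background. The second Doc2b probe, above background on 4 arrays, was at 5.69 on mCherry 4. It differed by -2.43 (limma adjusted p = 0.0528 when tested on its own). Syt3 had a bound of 1.62-fold in the same direction (adjusted p = 0.114), and Syt6, Syt9, Syt12 and Doc2a differed by 0.38, -0.66, -0.45 and -0.40 with overlapping groups.

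Of the proteins that act on SNAREs, 3 of 9 neuronal members fell. Cplx1, a complexin that clamps and then promotes fusion, had the largest difference of all 88 genes tested, at 11.27 and 9.54 in HoxA5 tumours, against 14.09, 14.35, 14.61 and 13.12 in mCherry tumours. It fell by 3.64 log2 units (SE 0.499, limma adjusted p = 0.00844), or 12.4-fold, and HoxA5 2 was 1.73 log2 units below HoxA5 1. Cplx2, the complexin of many excitatory terminals, was at 6.93 and 6.71 in HoxA5 tumours, against 11.06, 10.11, 10.48 and 8.55 in mCherry tumours. It fell by 3.23 (adjusted p = 0.0169), and its mCherry 4 value lay between the HoxA5 and the other mCherry values. Sncb, the presynaptic beta-synuclein, was at 9.60 and 8.18 in HoxA5 tumours, against 12.49, 12.24, 12.79 and 11.02 in mCherry tumours and fell by 3.24 (adjusted p = 0.0112). Sncg, gamma-synuclein, was above background on 4 mCherry arrays and no HoxA5 array and at least 6.19-fold lower, and did not pass with all arrays (adjusted p = 0.0562). It was at 6.06 on mCherry 4, against 8.58, 7.43 and 9.07 on the other mCherry arrays, and passed without mCherry 4. The second Sncg probe, above background on 3 arrays, differed by -1.43 with overlapping groups. Unc13c had a difference of -2.44 (adjusted p = 0.0536) and Unc13b a difference of -1.12 (adjusted p = 0.111), both with HoxA5 arrays below all mCherry arrays. Unc13a, the main priming factor of cortical synapses, was above background on 2 of 6 arrays, at 5.07 and 5.55 in HoxA5 tumours, against 5.08, 5.47, 4.67 and 4.83 in mCherry tumours, and its groups overlapped. Stxbp5, a tomosyn that holds SNAREs apart, had a difference of -0.75 (adjusted p = 0.176) on its brightest probe. Its second probe, above background on all 6 arrays and tested on its own, differed by -2.31 (adjusted p = 0.0255), and the mean of both probes passed at -1.53 (adjusted p = 0.0383). The related Stxbp5l had a difference of -0.18 (adjusted p = 0.769) with overlapping groups.

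Among proteins of the vesicle membrane, 5 of 13 neuronal members fell. Syp, synaptophysin, was at 11.38 and 10.71 in HoxA5 tumours, against 13.67, 13.70, 14.20 and 12.58 in mCherry tumours and fell by 2.49 (adjusted p = 0.0114). Sv2b, a vesicle glycoprotein, was at 8.38 and 8.06 in HoxA5 tumours, against 11.59, 11.12, 11.94 and 10.78 in mCherry tumours and fell by 3.14 (adjusted p = 0.00500), with the smallest adjusted p of the 88 genes. Its relative Sv2a, which binds the drug levetiracetam, was at 10.99 and 10.28 in HoxA5 tumours, against 12.31, 12.28, 13.15 and 11.46 in mCherry tumours. The HoxA5 values of Sv2a and Sv2b lay below every mCherry value, and Sv2a fell by 1.67 (adjusted p = 0.0467). Sv2c, the form of the basal ganglia, went the other way, with a difference of 1.03 (adjusted p = 0.165) and HoxA5 arrays above all mCherry arrays. Rab3a, the GTPase that tethers vesicles before release, was at 10.41 and 10.26 in HoxA5 tumours, against 12.90, 12.44, 13.04 and 11.75 in mCherry tumours on its brighter probe, which fell by 2.20 (adjusted p = 0.0107), and its second probe differed by -2.21. Syn2, a synapsin, fell by 1.67 (adjusted p = 0.0302) on its brightest probe. Its other tested probe, above background on 3 arrays, differed by -0.23 with overlapping groups, and with the mean of both the call was lost. Syn1, a synapsin that holds vesicles in the reserve pool, was at 11.69 and 10.89 in HoxA5 tumours, against 12.42, 13.10, 13.14 and 12.06 in mCherry tumours. Its HoxA5 1 value lay 0.37 below the lowest mCherry value, and the gene had a difference of -1.39 (adjusted p = 0.0517), while its second probe tested on its own differed by -1.33 (adjusted p = 0.0317). Syngr3 was at 9.50 and 9.87 in HoxA5 tumours, against 11.46, 11.09, 11.67 and 10.20 in mCherry tumours, with a difference of -1.41 (adjusted p = 0.0619). Snap91, a clathrin adaptor of vesicle retrieval, had a difference of -0.87 (adjusted p = 0.146), and Rab3b and Syn3 differed by -0.46 and -0.41. Rab3c, above background on no HoxA5 array and 2 mCherry arrays, had a bound of 1.12-fold in the lower direction (adjusted p = 0.219).

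Of the active zone proteins, all 4 tested had HoxA5 arrays below all mCherry arrays, and 2 fell. Rims3, a short RIM protein, was at 9.38 and 8.03 in HoxA5 tumours, against 11.91, 12.33, 12.35 and 11.27 in mCherry tumours and fell by 3.26 (adjusted p = 0.00641). Rims1, the scaffold that links calcium channels to vesicles, was at 8.07 and 7.46 in HoxA5 tumours, against 9.60, 10.38, 10.27 and 9.46 in mCherry tumours and fell by 2.16 (adjusted p = 0.0118). Rims2, its close relative, had a difference of -1.37 (adjusted p = 0.0853). Pclo, the Piccolo scaffold, was dim on all arrays, at 5.68 and 5.79 in HoxA5 tumours, against 6.51, 6.39, 6.98 and 6.18 in mCherry tumours, with a difference of -0.78 (adjusted p = 0.194). Bassoon was not measured, with both Bsn probes above background on 0 arrays.

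**Figure D2:**
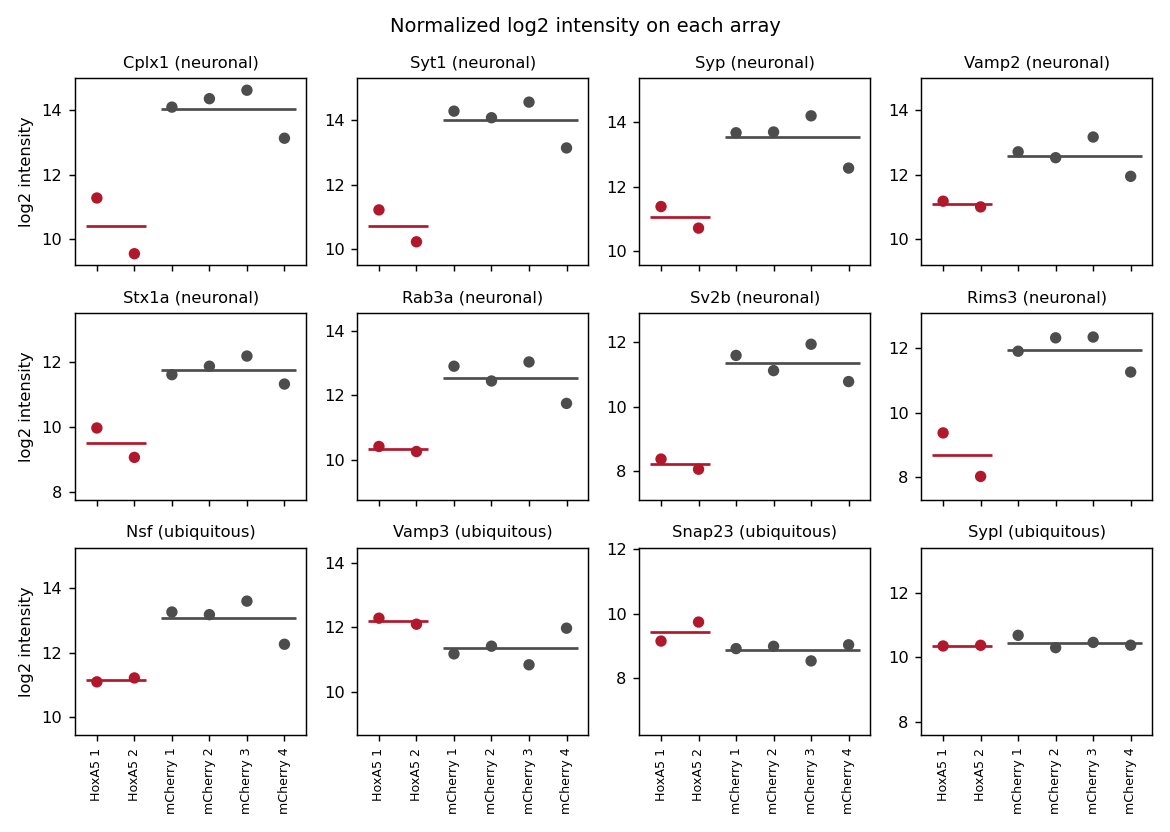
Normalized log2 intensity (vertical axis, the same span in every panel) on each array (horizontal axis) for 8 neuronal and 4 ubiquitous genes; red points are HoxA5 arrays, grey points mCherry arrays and lines group means. Both HoxA5 points lie below every mCherry point in the 8 neuronal panels and for Nsf, above them for Vamp3 and Snap23, and among them for Sypl.

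Promoter sequences are shown for the genes with the 2 largest differences, Cplx1 and Syt1, for Syn1, whose promoter is a known target of the neuronal silencer REST, and for the ubiquitous gene that fell, Nsf. They are RefSeq windows of 300 bases around the annotated start on GRCm38.p6, 5′ to 3′ on the gene's strand, at chr5:108549978-108550277, minus strand for Cplx1, chr10:109010926-109011225, minus strand for the first of 2 Syt1 windows, chrX:20920869-20921168, minus strand for Syn1 and chr11:103954007-103954306, minus strand for Nsf. Capitals mark matches on either strand to GGGCGG (the GC box), TTCAGCACC and GACAGCGCC (the left and right parts of the RE1 element that REST binds), TGACGTCA (the cyclic AMP element) and TATAAA (the TATA box), none of which overlap in these windows.
Cplx1: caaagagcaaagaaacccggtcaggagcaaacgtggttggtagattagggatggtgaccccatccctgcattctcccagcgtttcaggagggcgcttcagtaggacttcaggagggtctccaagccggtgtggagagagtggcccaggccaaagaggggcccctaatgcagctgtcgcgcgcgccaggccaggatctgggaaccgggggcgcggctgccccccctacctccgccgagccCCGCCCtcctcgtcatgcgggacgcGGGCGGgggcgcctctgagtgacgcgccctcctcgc
Syt1: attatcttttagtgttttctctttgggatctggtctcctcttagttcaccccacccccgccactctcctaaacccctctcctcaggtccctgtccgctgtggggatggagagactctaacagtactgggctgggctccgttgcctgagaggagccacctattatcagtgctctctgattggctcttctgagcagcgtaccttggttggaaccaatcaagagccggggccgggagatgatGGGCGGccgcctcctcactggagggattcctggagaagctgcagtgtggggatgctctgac
Syn1: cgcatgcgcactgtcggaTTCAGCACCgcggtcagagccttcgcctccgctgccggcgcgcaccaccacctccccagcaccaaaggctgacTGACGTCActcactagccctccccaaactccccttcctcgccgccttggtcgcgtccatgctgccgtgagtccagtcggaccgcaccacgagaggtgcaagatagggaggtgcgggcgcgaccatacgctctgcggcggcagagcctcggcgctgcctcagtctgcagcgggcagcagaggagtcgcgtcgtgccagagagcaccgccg
Nsf: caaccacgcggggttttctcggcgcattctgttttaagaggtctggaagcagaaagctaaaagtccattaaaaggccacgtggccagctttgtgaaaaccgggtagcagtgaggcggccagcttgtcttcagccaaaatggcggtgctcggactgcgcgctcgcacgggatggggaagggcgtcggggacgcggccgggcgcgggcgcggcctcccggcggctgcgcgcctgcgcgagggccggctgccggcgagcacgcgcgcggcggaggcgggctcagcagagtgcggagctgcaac

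The Syn1 window held TTCAGCACC and TGACGTCA, the Cplx1 window 2 GC boxes, the Syt1 window 1, and the Nsf window none of the 5 motifs. Windows were found for 82 of the 106 genes. TTCAGCACC occurred in 2 of 33 neuronal genes, Syn1 and Unc13a, and 0 of 26 ubiquitous genes, against 0.433% of all 27025 genes with a window. GACAGCGCC occurred in 1 neuronal gene, Unc13a, and 0 ubiquitous genes. The cyclic AMP element occurred in 1 neuronal gene, Syn1, and 1 ubiquitous gene, Stxbp3, against 2.03% of all genes. A GC box occurred in 28 of 33 neuronal genes (84.8%) and 20 of 26 ubiquitous genes (76.9%), against 38.2% of all genes, and a TATA box in 2 and 2, against 15.7%. These matches describe the letters in the windows and were not set against the expression values.

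Syngr1, synaptogyrin 1, a vesicle protein whose gene makes alternatively spliced transcripts, gave opposite differences on probes assigned to different transcript records. Of 36 genes with at least 2 probes above background, all probes of 29 moved in 1 direction, and Syngr1 alone had probes that lay without overlap on both sides. Its 4 probes belong to 2 RefSeq transcript records, called A and B here, with 2 probes each. Whether a probe reads only the transcript of its record is unknown. The brightest probe, of record A, was at 9.90 and 10.15 in HoxA5 tumours, against 9.47, 8.95, 8.34 and 9.52 in mCherry tumours, and the other of record A was at 8.92 and 9.13 in HoxA5 tumours, against 7.87, 8.02, 6.78 and 8.68 in mCherry tumours. Both were higher on the 2 HoxA5 arrays than on any mCherry array. The probes of record B were at 7.11 and 6.49 in HoxA5 tumours, against 9.37, 9.01, 10.00 and 8.07 in mCherry tumours, and at 6.49 and 5.96 in HoxA5 tumours, against 9.06, 8.91, 9.45 and 8.03 in mCherry tumours. Both were lower on the HoxA5 arrays than on any mCherry array. When each of 19479 probes was tested on its own, a choice made after the data were seen, the B probes fell, with differences of -2.31 and -2.63 (limma adjusted p = 0.0305 and 0.0120), while the A probes differed by 0.95 and 1.18 without passing (adjusted p = 0.162 and 0.178). The mean of the A probes minus the mean of the B probes was 2.61 and 3.41 in HoxA5 tumours, against -0.55, -0.47, -2.17 and 1.05 in mCherry tumours. This log2 ratio differed by 3.54 between the groups, which is a description, since the gene was singled out for probes that lie on both sides. Its level depends on the probes and only its change between arrays can be read. As the brightest, an A probe stands for Syngr1 in the gene-level counts.

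**Figure D3:**
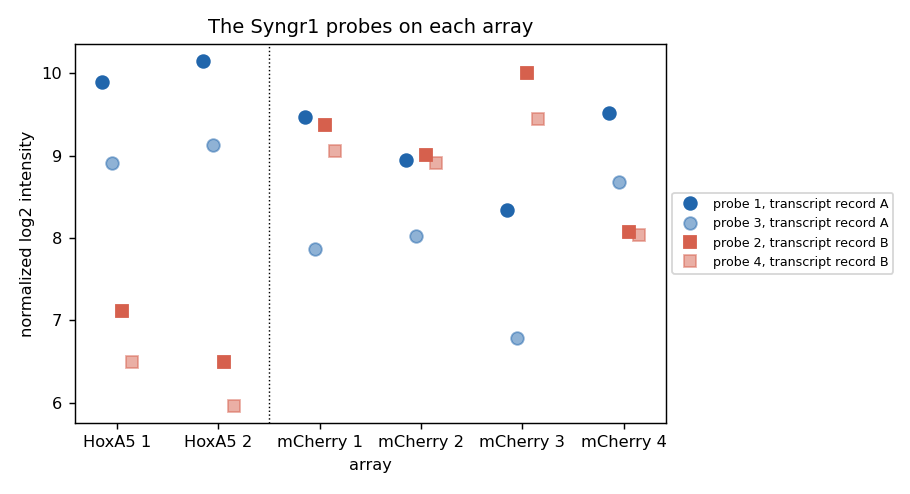
Normalized log2 intensity (vertical axis) of the 4 Syngr1 probes on each array (horizontal axis), circles for record A and squares for record B, numbered from the brightest. Each A probe is higher on both HoxA5 arrays than on any mCherry array and lowest on mCherry 3, at 8.34 and 6.78, and each B probe is lower on both HoxA5 arrays than on any mCherry array and highest on mCherry 3, at 10.00 and 9.45.

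Of the 27 ubiquitous genes, Nsf alone passed. Nsf, the ATPase that recycles SNAREs after every fusion event and is abundant in neurons, was at 11.09 and 11.21 in HoxA5 tumours, against 13.26, 13.18, 13.59 and 12.26 in mCherry tumours. It fell by 1.92 log2 units (SE 0.334, limma adjusted p = 0.0144), or 3.78-fold, on its brighter probe, and its other probe, above background on 3 arrays, differed by -0.34. With the mean of both probes the call was lost, and it was also lost without HoxA5 1, without HoxA5 2 and without mCherry 1. Snap47, a SNARE abundant in brain, had a difference of -1.68 (adjusted p = 0.0637), and Vamp4, a SNARE of the trans-Golgi network, had a difference of -0.74 (adjusted p = 0.0836), both with HoxA5 arrays below all mCherry arrays. Without mCherry 4, Snap47 and Vamp4 passed at -2.00 and -0.84, and so did Stxbp2 at -1.28 and Rab3gap1 at -0.81.

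Of 17 ubiquitous SNAREs tested 0 passed in limma, with 2 lower and 1 higher at an unadjusted p under 0.05. Vamp3, the vesicle SNARE of recycling endosomes in most cells, was at 12.28 and 12.10 in HoxA5 tumours, against 11.18, 11.42, 10.84 and 11.97 in mCherry tumours, with a difference of 0.84 (adjusted p = 0.132). Without mCherry 4 it passed at 1.05 (adjusted p = 0.0160). Snap23, which replaces Snap25 outside neurons, was at 9.15 and 9.74 in HoxA5 tumours, against 8.91, 8.98, 8.53 and 9.03 in mCherry tumours. On their brightest probes both genes were higher on the HoxA5 arrays than on any mCherry array, and Snap23 had a difference of 0.58 (adjusted p = 0.270). The second Vamp3 probe, above background on all 6 arrays, overlapped between the groups. Snap29, a general SNARE of endosomes and autophagosomes, was at 9.61 and 9.77 in HoxA5 tumours, against 9.41, 9.93, 9.48 and 9.83 in mCherry tumours, and Stx4a, the syntaxin of the plasma membrane in many cells, was at 9.81 and 9.59 in HoxA5 tumours, against 10.04, 9.89, 9.50 and 9.39 in mCherry tumours. Their groups overlapped, with differences of 0.02 and -0.00. Stx2 was above background on 3 of 6 arrays, at 5.11 and 5.54 in HoxA5 tumours, against 5.00, 4.73, 5.10 and 5.55 in mCherry tumours, and Stxbp3, the partner of Stx4a, was at 7.34 and 5.25 in HoxA5 tumours, against 4.49, 6.26, 5.51 and 4.83 in mCherry tumours, with HoxA5 1 far above HoxA5 2. Neither passed (adjusted p = 0.679 and 0.341). Sypl, the broadly expressed relative of synaptophysin, was at 10.35 and 10.37 in HoxA5 tumours, against 10.68, 10.30, 10.46 and 10.38 in mCherry tumours, and Syngr2, that of the synaptogyrins, was at 6.93 and 7.26 in HoxA5 tumours, against 7.03, 6.44, 6.34 and 6.58 in mCherry tumours. Both overlapped between groups, with differences of -0.09 and 0.50. The remaining ubiquitous genes that were tested, among them Stx3, Stx5a, Stx6, Stx7, Stx8, Stx12, Stx17, Stx18, Vamp7, Vamp8, Stxbp4 and the Rab3 regulators Rab3ip, Rab3il1 and Rab3gap2, had differences from -0.45 to 0.71.

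Neuronal genes were next set against a related gene within the same array, so that array effects common to both cancel. Of 13 pairs listed, 8 had both genes tested. In 7 of them the difference was lower on the 2 HoxA5 arrays than on any mCherry array. Each had the smallest exact permutation p that 15 splits allow (0.0667, two-sided, or 0.0762 adjusted over the 8 pairs). With 15 splits the test could not pass the threshold used here, so these p-values decide nothing. The pairs were also chosen with earlier results known, and Vamp1, Vamp2, Stx1a, Syp, Rab3a and Syt1 were already called lower. Vamp3 stands in the pairs of both Vamp1 and Vamp2. The pairs therefore describe the size of the change and are no separate support. The log2 difference of Vamp2 to Vamp3 was -1.10 and -1.09 in HoxA5 tumours, against 1.54, 1.12, 2.34 and -0.02 in mCherry tumours. The mCherry 4 value lay between the HoxA5 and the other mCherry values, and the change was -2.34. Syp minus Sypl was 1.03 and 0.34 in HoxA5 tumours, against 2.99, 3.39, 3.73 and 2.20 in mCherry tumours, a change of -2.39. Stx1a minus Stx4a was 0.16 and -0.54 in HoxA5 tumours, against 1.58, 2.00, 2.70 and 1.94 in mCherry tumours, a change of -2.24. In all 3 pairs the neuronal gene lost more than 2 log2 units on its relative. The change was -3.66 for Vamp1 to Vamp3, -3.03 for Syt1 to Syt11, -2.06 for Rab3a to Rab3d and -1.91 for Syngr3 to Syngr2. The pair of Syngr1 (its A probe) and Syngr2 overlapped, with a change of 0.45 (exact permutation p = 0.267). The sizes of these values depend on the probes, and only their change between groups is compared. Syt11, a synaptotagmin without calcium binding that is also used in glia, was at 8.34 and 8.65 in HoxA5 tumours, against 8.79, 8.54, 8.85 and 8.83 in mCherry tumours, and Rab3d, the Rab3 of exocrine and other secretory cells, was at 7.97 and 7.59 in HoxA5 tumours, against 8.58, 6.97, 8.47 and 7.67 in mCherry tumours, each with overlapping groups.

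**Figure D4:**
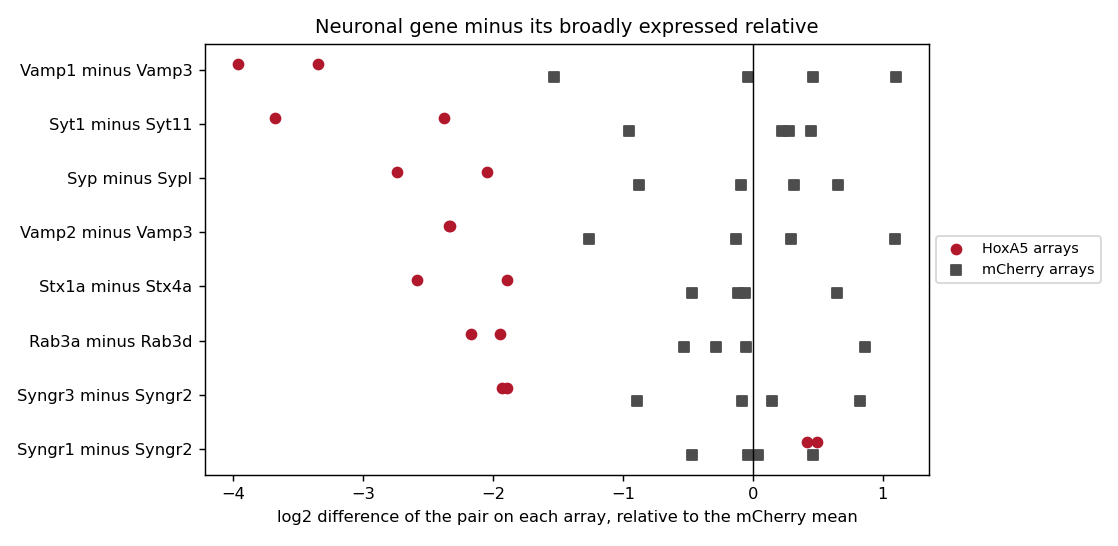
For each of 8 gene pairs (vertical axis), the log2 difference of the 2 genes on every array minus the mean of that difference over the mCherry arrays (horizontal axis), red circles for HoxA5 and grey squares for mCherry arrays. In 7 pairs both circles lie left of every square, and in the pair of Syngr1 and Syngr2 they lie with the highest squares.

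In the class of other secretory genes, Sytl2 fell. Sytl2, which binds Rab27 and vesicle membranes, was at 7.44 and 7.91 in HoxA5 tumours, against 10.28, 9.38, 10.39 and 9.52 in mCherry tumours. It fell by 2.22 (adjusted p = 0.0119) on its brightest probe, with both HoxA5 arrays below every mCherry array. Its other tested probe, above background on 2 arrays, differed by -0.43 with overlapping groups, and with the mean of both the call was lost. Stx11, a SNARE of cytotoxic lymphocytes and other immune cells, differed by 1.01 with HoxA5 arrays above all mCherry arrays (adjusted p = 0.151) and passed without mCherry 4 at 1.20 (adjusted p = 0.0473). Sypl2, the synaptophysin relative of muscle, was above background on 3 mCherry arrays and no HoxA5 array and at least 1.50-fold lower, but did not pass (limma adjusted p = 0.158). Syt16, Doc2g and Vamp5 differed by -0.60, 0.20 and 0.16, with overlapping groups. Syt15, Syt17 and Sytl4 were above background on 2, 2 and 3 mCherry arrays and no HoxA5 array. Sytl4 was at least 1.34-fold lower, with overlapping groups (adjusted p = 0.324), and no bound could be given for Syt15 and Syt17.

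The Rab30 to Rab39 genes did not move together. Rab32, a GTPase of lysosome-related organelles, had a difference of 1.14 (adjusted p = 0.0744), and passed without mCherry 4 at 1.32 (adjusted p = 0.0161). Rab31, an endosomal GTPase, had a difference of 0.93 (adjusted p = 0.196) and passed without mCherry 4 at 1.17 (adjusted p = 0.0454). Both were higher on the HoxA5 arrays than on any mCherry array. Rab33a, the member of the class with the lowest difference, was lower on both, with a difference of -0.999 (adjusted p = 0.0646), and also passed without mCherry 4, at -1.09 (adjusted p = 0.0253). Rab33b, Rab34, Rab35, Rab36, Rab38, Rab39 and Rab39b overlapped between groups, at -0.26 to 0.50.

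Other genes of the presynaptic terminal, from a list of 41 on the array, fell in 14 of 37 tested cases and rose in 0, with a median of -1.20. For vesicle loading 5 of 7 fell, among them the glutamate transporter Slc17a7 at -2.75 (adjusted p = 0.0112) and the GABA transporter Slc32a1 at -3.43 (0.0308). For fusion and priming 5 of 10 fell, among them Napb, the neuronal partner of Nsf, at -2.83 (0.0114), and Napg at -1.20 (0.0316), while Napa was at -1.01 (0.0705). For the active zone 2 of 12 fell, Erc2 at -1.87 and the adaptor Lin7b at -4.12, and for vesicle retrieval 2 of 8, Pacsin1 at -2.72 and Sh3gl2, an endophilin, at -2.09. Their adjusted p-values were 0.0306, 0.00844, 0.00903 and 0.0118. Fewer genes were called without either HoxA5 array, without mCherry 1 (8) and without mCherry 2 (9), and more without mCherry 4 (23). The calls over all genes moved in the same way.

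Markers of several cell types moved with the neuronal release genes. Of 10 neuron markers outside the release genes 6 fell, namely Rbfox3, Nefm, Eno2, Camk2a, Gad1 and Gad2. Thy1, Map2, Elavl4 and Tubb3 did not pass, with differences of -1.14, -0.27, -0.08 and 0.30. The median of the 10 was -2.16, and 18 of the 40 neuronal release genes were below that median. The neuron markers averaged 9.84 and 8.95 in HoxA5 tumours, against 11.32, 11.56, 11.80 and 10.58 in mCherry tumours. The neuronal release genes averaged 7.90 and 7.55 in HoxA5 tumours, against 9.41, 9.48, 9.80 and 8.69 in mCherry tumours. Their mean minus that of the neuron markers was -1.94 and -1.39 in HoxA5 tumours, against -1.91, -2.08, -2.00 and -1.89 in mCherry tumours, so the HoxA5 values lay within or above the range of the mCherry values. Oligodendrocyte markers fell in 6 of 7 cases (median -2.48), averaging 9.14 and 8.29 in HoxA5 tumours, against 11.44, 11.19, 11.48 and 10.44 in mCherry tumours. Dividing cell markers rose in 4 of 6 cases (median 2.53), averaging 9.65 and 9.85 in HoxA5 tumours, against 7.23, 7.36, 5.85 and 8.66 in mCherry tumours. Fibroblast markers rose in 4 of 5 cases, averaging 10.37 and 8.96 in HoxA5 tumours, against 6.38, 7.08, 6.69 and 7.79 in mCherry tumours. Astrocyte markers fell in 2 of 7 cases (median -0.90), averaging 11.50 and 11.37 in HoxA5 tumours, against 12.37, 12.49, 12.56 and 11.89 in mCherry tumours. Choroid plexus markers fell in 3 of 4 cases (median -3.19), averaging 5.14 and 5.55 in HoxA5 tumours, against 9.55, 9.45, 10.79 and 8.50 in mCherry tumours. Of these, Kl, which fell, and Folr1 were above background on no HoxA5 array and entered the test through the mCherry arrays alone. Ttr was above background on 1 HoxA5 array, so the HoxA5 averages lie near background. Microglia markers averaged 10.00 and 9.88 in HoxA5 tumours, against 9.69, 9.88, 9.60 and 10.01 in mCherry tumours, and glioma progenitor markers 10.76 and 11.21 in HoxA5 tumours, against 10.16, 10.46, 9.26 and 10.81 in mCherry tumours. None of 8 microglia and 7 progenitor markers passed in limma, with 0 and 2 at an unadjusted p under 0.05. The part of these other cells in the result was not tested. Ubiquitous release genes averaged 8.997 and 9.08 in HoxA5 tumours, against 9.15, 9.17, 9.18 and 9.02 in mCherry tumours.

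**Figure D5:**
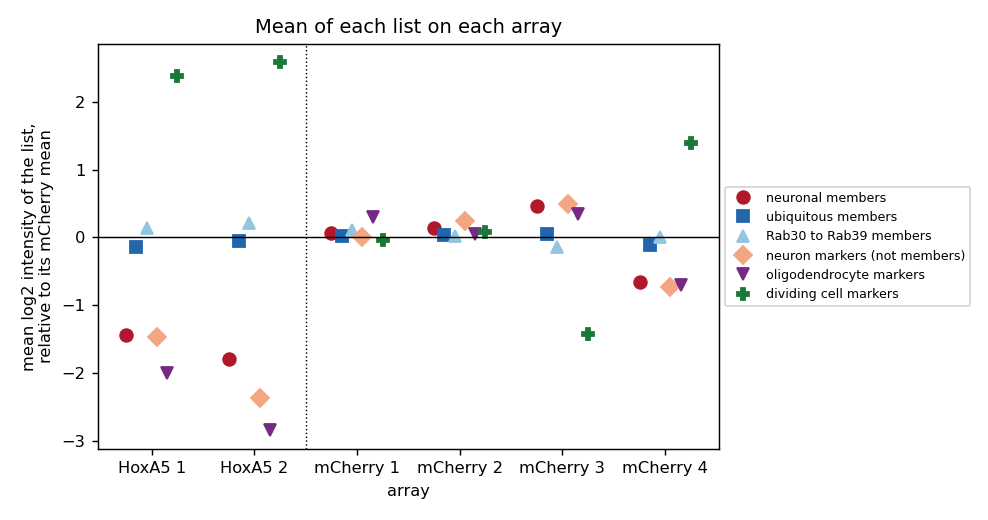
Mean log2 intensity of 6 gene lists on each array (horizontal axis), each minus its own mean over the 4 mCherry arrays (vertical axis). The neuronal release genes and the neuron markers are lowest on HoxA5 2, HoxA5 1 and then mCherry 4, the dividing cell markers are highest on these 3 arrays, and the ubiquitous genes stay near 0.

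The neuronal release genes also ordered the arrays within each group. For 27 of the 40, both HoxA5 arrays were below mCherry 4 and mCherry 4 below the other mCherry arrays, an order shown by 12.8% of all genes. Of the 40, 4 were above background on no HoxA5 array and entered through the mCherry arrays alone. Among these, Doc2b, Sncg and Syt3 are in the count of 27, and their HoxA5 values were not above background. The mCherry 4 array was the lowest of the 4 mCherry arrays for 28 of the 40, against 28.2% of all genes. The mCherry 3 array was the highest of the 4 for 27 of the 40, against 27.99% of all genes. Among the HoxA5 arrays, HoxA5 2 was below HoxA5 1 for 30 of the 40, against 51.2% of all genes. These counts describe the 6 arrays, and genes of 1 array are not independent of each other.

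The other 18 genes of the family search did not reach the detection filter. They were Bsn, Cplx3, Cplx4, Rims4, Snap25, Syt2 and Syt10 of the neuronal class, Stx16 of the ubiquitous class, Rab30 and Rab37, and the other secretory genes Stx19, Stxbp6, Syngr4, Syt8, Syt14, Sytl3, Sytl5 and Unc13d. Stx16, Rab37, Syngr4 and Unc13d were above background on 1 array and the rest on 0. For these genes a difference was not measurable on this array. Without the detection filter, 17 of all 47 neuronal genes fell, with a median of -1.37.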

How the data were processed

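The authors deposited bead intensities for 45281 probes in a table they called non-normalized, with a detection p-value for each, per the file headers. They also deposited log2 values, which the submitters' processing notes tie to limma without a version. No background had been subtracted to 0 (lowest intensity 102.5). Here intensities were background-corrected with neqc's normal-exponential model (offset 16, controls estimated through the detection p-values), quantile-normalized and log2-transformed in limma 3.58.1 (R 4.3.3). The offset pulls differences of dim genes towards 0. Probes with 1 symbol in the platform annotation (34885) that were above background (detection p-value under 0.05) on 2 or more arrays were kept (19479), and the brightest probe stood for each of 12242 genes. Groups were compared with lmFit and eBayes (intensity trend), using Benjamini-Hochberg adjustment over all genes and a threshold of 0.05. The fit was tested on simulated data, where it called 56 of 100 genes changed by 2 log2 units and 98 of 100 changed by 4. A gene that did not pass may therefore still differ. RefSeq GRCm38.p6 held all 106 member symbols.

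The members, classes, lists, pairs and alternatives were chosen with earlier results of these data known. Array values are given for the 12 called members with the largest differences, called members outside the neuronal class, members of the pairs, and Syn1, Cplx1, Cplx2, Rims1, Pclo, Sv2a, Sv2b, Sncb and Nsf. Other members named carry differences only, except Doc2b, Sncg and the probes of Syngr1, whose values were added after they were seen. The alternatives were no background correction, median scaling, the authors' values, 2 other detection filters, the mean of a gene's probes, no trend, array weights, the replicate number and sex (read from Xist and Eif2s3y) as blocks, a threshold of 0.1, and leaving out each array. The file headers name no slide, so slide was not used as a block.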

Additional observations from a re-analysis of the deposited data

Results flagged for a closer look

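Syt7 was singled out because 1 of the 4 mCherry arrays lay far from the other 3. In HoxA5 tumours it was at 7.42 and 7.00. On mCherry 4 it was at 8.97, while the others were at 10.23, 10.12 and 10.09, so the gap took 0.888 of the group's whole range, above Dixon's limit at 95%. Of 34 named genes tested this way, 1 was singled out, and chance alone does so for about 1 group in 20. Both HoxA5 values lay below the mCherry 4 value.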

How the results depend on the processing

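Neuronal release genes were lower in HoxA5 tumours under every alternative run: their median ran from -1.67 with the stricter detection filter to -1.32 with the authors' values, and from -1.96 to -1.34 with 1 array left out. Of the 20 called genes, 13 passed in all 11 alternatives that kept every array. Members called lower numbered 15 with sex as a block, 16 with median scaling or no trend and 30 with array weights, and 0 to 33 with 1 array left out, where the neuronal count ran from 0 to 26. Without HoxA5 2, 21 neuronal genes were still lower in limma at an unadjusted p under 0.05. Members called higher were 1 with median scaling (Rab32), 2 with array weights (Rab32 and Vamp3) and 1 at a threshold of 0.1 (Rab32), and 0 to 4 with 1 array left out. Ubiquitous genes called lower were 0 when each gene's probes were averaged, 3 with array weights, 2 with the replicate block and 3 at a threshold of 0.1, and 0 to 5 with 1 array left out. Ubiquitous genes called higher were 1 with array weights and 0 to 1 with 1 array left out. The ubiquitous median was near 0 and changed sign, at 0.097 with median scaling and 0.020 when probes were averaged, and -0.078 to 0.0096 with 1 array left out. Median scaling moved the median of all genes from 0.072 to 0.20, and relative to that median the ubiquitous value was -0.10 there and -0.16 with quantile normalization. Other presynaptic genes called lower numbered 0 to 23 with 1 array left out, and the pairs with a lower neuronal gene 7 in each such fit. The groups did not overlap in these 7 pairs with all arrays, so leaving 1 out could hardly change that count. With the replicate block, 26 members and 23 neuronal genes were lower. The groups share only the numbers 1 and 2, nothing in the labels ties them, and the deviations of samples numbered 1 correlated at -0.34, so the numbers were not taken as pairs. The cause of these shifts was not tested. Signal near background limits the 8 genes seen only on mCherry arrays and the 18 not tested.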

Other observations

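Several release genes had more than 1 probe above background. In the test of every probe, 29 of 138 member probes were lower in HoxA5 tumours and 0 higher, among 715 and 206 of all 19479 probes. Besides the Syngr1 probes of record B, these included both bright probes of Vamp1, at -2.82 and -3.16, while its 2 dim probes, at mCherry means of 4.93 and 4.97, did not pass. Rims1 was at -2.16 on its bright probe (adjusted p = 0.0127), while a dim probe of another transcript record was above background on 4 arrays and did not pass (adjusted p = 0.0664). The 2 Vamp3 probes differed by 0.84 and 0.86 and did not pass (adjusted p = 0.144 and 0.275), and the groups overlapped on the dimmer probe.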
